A study of Mus musculus with 10 samples.

Results

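Chaperones and heat shock proteins of mouse embryonic stem cells were compared across 5 culture conditions. The members were chosen by gene symbol and covered the HSP70, HSP110, HSP90, HSP60 and small heat shock protein families, the J-domain co-chaperones (Dnaja, Dnajb and Dnajc), the subunits of the cytosolic chaperonin TRiC/CCT, and the BAG co-chaperones. Among the lines whose symbols stand beside their own values, 59 symbols matched, of which 57 reached a level of 1 TPM, a unit scaled by transcript length and library total, in at least 2 of the 10 libraries. Dnajc19 and its pseudogene Dnajc19-ps carry identical values and were counted once, so that 56 members were described among the 14578 lines that passed the same filter. Hspb7 and Dnajc5b did not pass, with at most 0.775 and 0.355 TPM in any library. Hspa1a, Hspa1b and Hspe1 are not analysed here.

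Chaperones bind unfolded proteins and let them fold without aggregating. HSP70 proteins do so in cycles of ATP hydrolysis, which J-domain proteins start and which nucleotide exchange factors (the HSP110 and BAG proteins) reset. HSP90 acts later, on kinases and transcription factors among others, and TRiC encloses actin, tubulin and other clients. The endoplasmic reticulum (ER) and the mitochondria have HSP70 and HSP90 proteins of their own, and HSP60 folds proteins in the mitochondrial matrix.

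All libraries came from an embryonic stem cell line of the strain label C57BL6X129S6F1, and each medium held 1000 IU of mouse leukaemia inhibitory factor. A2iL cells were grown in serum-free N2B27 medium with 3 μM Chir99021, an inhibitor of the kinase GSK3, and 1.5 μM CGP77675, an inhibitor of Src kinases. LCDM cells were given 3 μM Chir99021 in N2B27 together with Dim and Mih at 2 μM each. The 2iL-F and 2iL cells shared N2B27 with 3 μM Chir99021 and 1 μM of the MEK inhibitor PD0325901, while SL cells had KO-DMEM with 15% fetal bovine serum. Per the labels, feeder cells were present in every condition except 2iL-F. Each condition had 2 libraries, numbered 3 and 5 by the submitters. Nothing in the labels says that they came from separate cultures. P-values therefore measure no more than the spread between libraries of the same condition, pooled over the 5 conditions, and this may be technical.

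Fibroblast transcripts went against the feeder labels. Of 40 fibroblast markers in the named lines, the number at 1 TPM or more in both libraries was 38 in A2iL, 37 in LCDM, 38 in 2iL-F, 14 in 2iL and 40 in SL. Their summed level was 3928 and 3841 TPM in A2iL, 1493 and 1477 in LCDM, 5781 and 5579 in 2iL-F, 1055 and 1116 in 2iL, and 7075 and 7361 in SL. The collagen gene Col1a1 averaged 1020 TPM in 2iL-F, labelled as free of feeder cells, and 0.232 TPM in 2iL, labelled as grown on them, where the collagen crosslinking enzyme Lox was listed at 0. The names 2iL-F and 2iL are used below only for the libraries so labelled. Pou5f1, which encodes the pluripotency factor OCT4, ranged between 991 and 1367 TPM over the 10 libraries. Other stem cell markers were less even, with Nanog between 132 and 729 TPM, though Sall4 stayed between 69.4 and 83.0 TPM. The 12 stem cell markers in the named lines summed to 3049 and 3039 TPM in A2iL and 3854 and 3802 in LCDM. Their sum was 3781 and 3697 TPM in 2iL-F, 3427 and 3638 in 2iL, and 2129 and 2214 in SL. Fibroblast marker sums were highest in SL and lowest in 2iL, as were the levels of many chaperones. The markers did not all follow the sum. Col1a1, Col3a1 and Lox averaged 1020, 358 and 239 TPM in 2iL-F and 379, 29.0 and 189 TPM in SL. By the test given below, 17 of the 40 markers were higher and 20 lower in 2iL-F against SL, beside 28.1% and 37.3% of all lines. The part of the fibroblast transcripts in the chaperone differences was not tested. In bulk RNA, fewer cells of a type and less RNA per cell cannot be told apart.

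The members spanned a wide range of levels. TPM are scaled by transcript length, so levels may be set side by side between genes. Averaged over the 10 libraries, 2 members reached 1000 TPM, 19 reached 100 TPM and 41 reached 10 TPM, while 6 stayed under 5 TPM in every library. The cytosolic HSP90 genes led. Hsp90ab1, the constitutive form, lay between 3562 and 4901 TPM, and Hsp90aa1, the form with a stress-inducible promoter, between 1934 and 2615 TPM. The highest members of the other families were Hspa8 of HSP70, Hspa4 of HSP110, Hspb1 of the small heat shock proteins, Cct2 of TRiC, Bag1 of the BAG proteins, Dnaja2 and Dnajc7. In class B, Dnajb1 and Dnajb11 both averaged 53.0 TPM, and Dnajb11 was the higher in 2iL-F (62.5 against 58.1 TPM) and in SL (62.3 against 48.6 TPM). All members together held 1.87% and 1.88% of the listed TPM in A2iL, 2.04% and 2.00% in LCDM, 1.98% and 2.00% in 2iL-F, 1.57% and 1.68% in 2iL, and 2.02% and 2.04% in SL. The 2iL share was the lowest, and its libraries did not overlap with those of any other condition.

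Of the 48 members with a mean of at least 5 TPM, 29 had condition means within 1.5-fold of each other and 12 had condition means more than 2-fold apart. Dnajc6 had the widest range of condition means, 3.00 on the log2(TPM + 1) scale, and Dnajc14 the narrowest, 0.17. The lowest condition was 2iL for 27 of the 56 members (48.2%, against 31.7% of all lines tested), and the highest was SL for 26 (46.4%, against 31.8% of all lines).

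**Figure D1:**
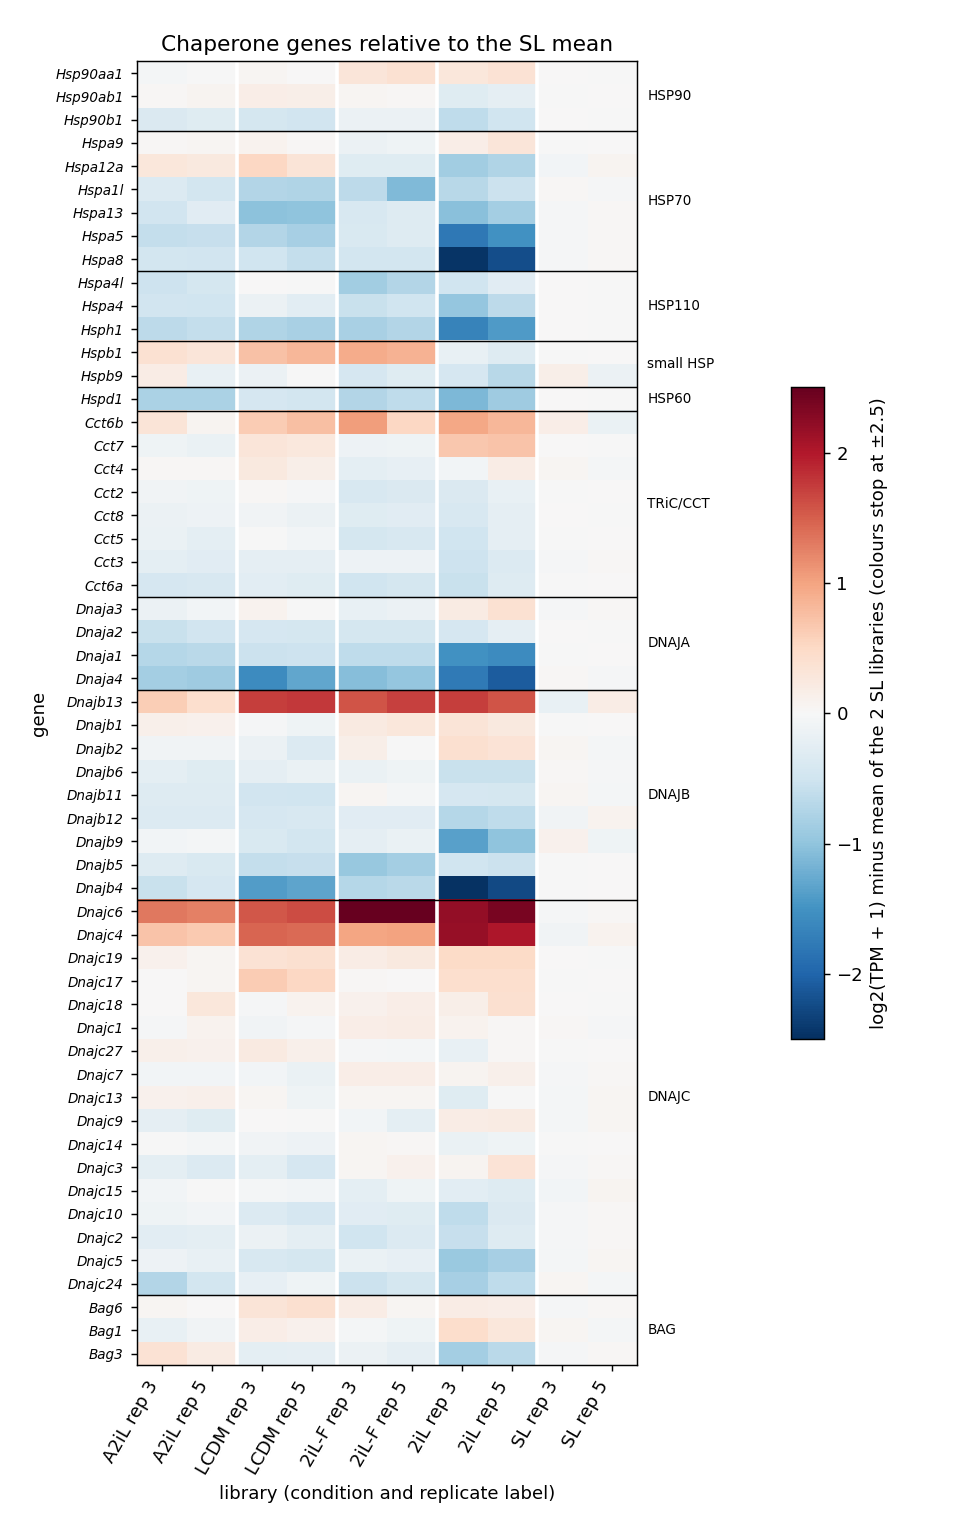
Heat map of 56 chaperone genes (rows, grouped by family) in the 10 libraries (columns: condition and replicate label). Colour gives log2(TPM + 1) minus the mean of the 2 SL libraries, with red above and blue below SL, and stops at 2.5 in either direction. The darkest blue cells are Hspa8 and Dnajb4 in 2iL, and the darkest red ones Dnajc6 in 2iL-F, at 3.00.

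Changes were tested with limma on log2(TPM + 1), with Benjamini-Hochberg adjustment over all 14578 lines and a threshold of 0.05. A change is given on that scale with its standard error (SE), and it understates the change of genes with few TPM. In A2iL against SL, 5 members rose and 25 fell, where 21.9% and 31.9% of all lines did so. The split of A2iL against SL depended on the scaling, at 11 higher and 21 lower with median-of-ratios scaling and 9 higher and 22 lower after quantile normalisation. In LCDM against SL, 12 members rose and 23 fell, beside 32.2% and 33.7% of all lines. In 2iL-F against SL, 9 rose and 27 fell, beside 28.1% and 37.3%. In 2iL against SL, 16 rose and 34 fell, beside 36.7% and 40.9%. As shares of the 56 members, those that fell made up 44.6% in A2iL, 41.1% in LCDM, 48.2% in 2iL-F and 60.7% in 2iL.

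Against SL, the median change of the members was -0.12 in A2iL, beside -0.07 over all lines. In LCDM it was -0.12, beside 0 over all lines, in 2iL-F -0.17, beside -0.08, and in 2iL -0.32, beside -0.04. Larger changes, of at least 1 on the log2 scale, were few outside 2iL. In A2iL 1 member rose and 0 fell that far, where 3.73% and 4.75% of all lines did so. In LCDM 3 rose and 3 fell, beside 6.03% and 10.2%, and in 2iL-F 2 rose and 1 fell, beside 7.74% and 8.39%. In 2iL 3 rose and 8 fell, beside 12.9% and 16.5%. Fitted leaving out the libraries labelled 2iL and 2iL-F, A2iL against SL gave 6 higher and 27 lower members, and LCDM against SL 14 higher and 26 lower.

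The 4 comparisons with SL share the SL libraries. Lower than SL in all 4 were 16 members (28.6%, beside 17.1% of all lines): Hspa8, Hspa5, Hspa13, Hspa1l, Hsph1, Hspd1, Hsp90b1, Cct6a, Dnaja1, Dnaja2, Dnaja4, Dnajb4, Dnajb5, Dnajb6, Dnajb12 and Dnajc5. Higher in all 4 were Dnajb13, Dnajc4 and Dnajc6 (5.4%, beside 12.1%). Bag3, Cct4, Cct7, Dnajb2, Dnajc9, Hsp90ab1, Hspa12a and Hspb1 passed in both directions depending on the condition (14.3%, beside 14.4%). Dnajc1, Dnajc13 and Dnajc27 passed against SL in no condition (5.4%, beside 8.22%).

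The HSP70 family had its largest difference in Hspa8, which encodes HSC70, the constitutive cytosolic HSP70 (chromosome 9, 40800984 to 40810087, plus strand, GENCODE vM21 on mm10). Its levels were 1001 and 986 TPM in A2iL, 979 and 916 in LCDM, 1004 and 1006 in 2iL-F, 252 and 297 in 2iL, and 1353 and 1411 in SL. The 2iL libraries stood far below all others, the SL libraries above all others, and the other 3 conditions lay close together between them. The change in 2iL against SL was -2.33 ± 0.07 (SE; adjusted p = 1.32e-08, limma), a mean level of 0.198 of that in SL. Smaller falls passed elsewhere, -0.48 ± 0.07 for A2iL, -0.54 ± 0.07 for LCDM and -0.46 ± 0.07 for 2iL-F. Hspa8 has processed pseudogenes, as many chaperone genes do, and no source used here tells how shared reads were split.

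The order of the 2 most abundant HSP70 genes turned round in 2iL. Hspa9, the mitochondrial HSP70 known as mortalin, had 424 and 431 TPM in A2iL, 441 and 426 in LCDM, 377 and 386 in 2iL-F, 465 and 517 in 2iL, and 414 and 419 in SL. The ratio of Hspa8 to Hspa9 was 2.362 and 2.287 in A2iL, 2.222 and 2.151 in LCDM, 2.660 and 2.608 in 2iL-F, 0.542 and 0.575 in 2iL, and 3.266 and 3.370 in SL. Hspa8 was thus the higher of the pair in 8 libraries and the lower in the 2 labelled 2iL. Hspa9 rose by 0.23 ± 0.05 in 2iL against SL (adjusted p = 0.0034, limma).

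Of the less abundant HSP70 genes, Hspa13, a microsomal form, had 8.62 and 10.2 TPM in A2iL, 5.66 and 5.72 in LCDM, 9.17 and 9.75 in 2iL-F, 5.50 and 6.50 in 2iL, and 12.2 and 12.8 in SL. LCDM and 2iL overlapped at the bottom and SL stood above the rest, with a change of -1.01 ± 0.09 in LCDM against SL. Hspa12a, a distant relative of HSP70, was at 2.95 and 2.82 TPM in A2iL, 3.61 and 3.05 in LCDM, 1.62 and 1.61 in 2iL-F, 0.765 and 0.920 in 2iL, and 2.09 and 2.40 in SL. It rose by 0.42 ± 0.10 in LCDM and fell by 0.82 ± 0.10 in 2iL, both against SL, and the fall became -1.32 with a pseudocount of 0.1 and -0.39 after quantile normalisation. Hspa1l, best known from the testis, did not exceed 1.97 TPM in any library, and antisense gene Gm10501 overlaps it.

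HSP110 proteins exchange the nucleotide of HSP70, and 3 of their genes were members. Against SL, 3 fell in A2iL and 1 in LCDM, beside 31.9% and 33.7% of all lines. In 2iL-F 3 fell, beside 37.3% of all lines, and in 2iL 3 fell, beside 40.9%. Hsph1 (chromosome 5, 149614287 to 149636376, minus strand) had 37.4 and 39.1 TPM in A2iL, 34.9 and 33.5 in LCDM, 33.7 and 35.7 in 2iL-F, 18.0 and 21.7 in 2iL, and 60.3 and 59.0 in SL. The 2iL libraries were lowest and SL highest, with the other conditions near each other. Its change against SL was -0.63 ± 0.08 in A2iL, -0.78 ± 0.08 in LCDM, -0.76 ± 0.08 in 2iL-F and -1.55 ± 0.08 in 2iL. Hspa4 had 181 and 178 TPM in A2iL, 229 and 209 in LCDM, 171 and 177 in 2iL-F, 128 and 159 in 2iL, and 254 and 251 in SL. It fell by 0.82 ± 0.09 in 2iL, and in LCDM its change of -0.20 ± 0.09 did not pass (adjusted p = 0.0801, limma), although it passed with median-of-ratios scaling (adjusted p = 0.0328) and in the 4 libraries alone (adjusted p = 0.0169). Hspa4l stayed between 0.440 and 1.67 TPM. Its fall of 0.39 ± 0.11 in 2iL against SL became -0.64 with a pseudocount of 0.1 and turned to 0.04 after quantile normalisation. Without 2iL replicate 3 it missed the threshold, at -0.28 (adjusted p = 0.0624, limma).

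**Figure D2:**
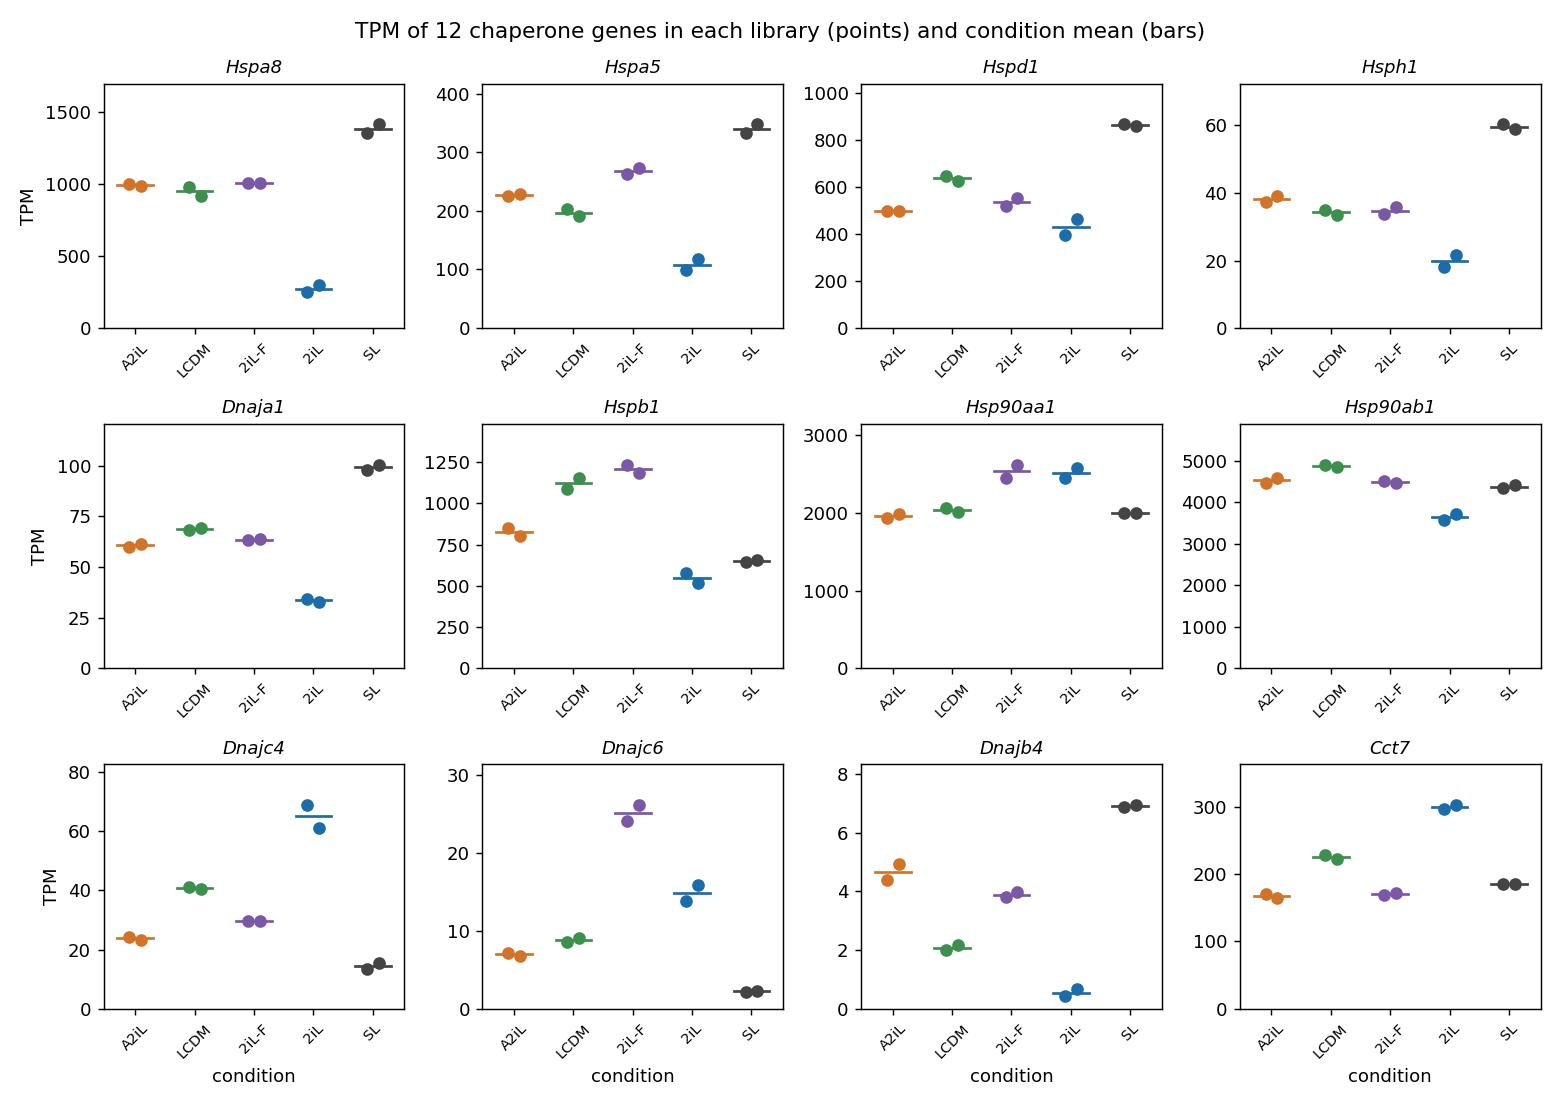
TPM of 12 chaperone genes by condition. Points are libraries and horizontal bars are condition means, with a linear axis from 0 in each panel. Hspa8, Hspa5, Hspd1, Hsph1 and Dnaja1 are lowest in 2iL and highest in SL, whereas Dnajc4 and Dnajc6 are lowest in SL. Hspb1 is highest in 2iL-F and LCDM.

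Class A J-domain proteins, the closest relatives of bacterial DnaJ, mostly fell. Dnaja1, a farnesylated cytosolic partner of HSC70, had 60.1 and 61.4 TPM in A2iL, 68.2 and 69.4 in LCDM, 63.3 and 63.7 in 2iL-F, 34.2 and 32.9 in 2iL, and 97.8 and 100.4 in SL. As in Hspa8, 2iL lay below and SL above all other libraries. Of the conditions between, LCDM was the highest in Dnaja1 and the lowest in Hspa8. Dnaja1 changed by -0.70 ± 0.04 in A2iL, -0.52 ± 0.04 in LCDM, -0.63 ± 0.04 in 2iL-F and -1.53 ± 0.04 in 2iL against SL. Dnaja4, a further cytosolic class A member, had 3.26 and 3.13 TPM in A2iL, 1.60 and 2.11 in LCDM, 2.69 and 2.94 in 2iL-F, 1.25 and 0.826 in 2iL, and 6.88 and 6.48 in SL. It fell by 1.92 ± 0.12 in 2iL and by 1.43 ± 0.12 in LCDM against SL. Dnaja2, the most abundant of the class, ranged only between 132 and 195 TPM, with SL above the other libraries. Dnaja1 overlaps Smu1 and Dnaja4 overlaps Wdr61 on the opposite strand, and no source used here tells whether the counting used strand. Opposite-strand overlaps also hold for Dnajb13 with Ucp2, Dnajb6 with Gm5129, Hspa12a with Eno4, Hspd1 with Hspe1, Cct6a with Psph, Cct8 with Usp16 and Dnajc14 with Tmem198b and Ormdl2, and Dnajc14 shares a strand with Sarnp.

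Among the class B proteins, Dnajb4 and Dnajb9 showed the largest falls in 2iL against SL, while in 2iL-F Dnajb5 fell most, by 0.90 ± 0.07. Dnajb4, a cytosolic HSP40, had 4.38 and 4.92 TPM in A2iL, 1.99 and 2.18 in LCDM, 3.81 and 3.97 in 2iL-F, 0.420 and 0.658 in 2iL, and 6.87 and 6.93 in SL. The 5 conditions did not overlap, and the change was -2.36 ± 0.10 in 2iL and -1.36 ± 0.10 in LCDM against SL. Dnajb1, the main stress-inducible HSP40, moved little, at 52.9 and 52.7 TPM in A2iL, 47.5 and 45.3 in LCDM, 56.7 and 59.5 in 2iL-F, 61.2 and 57.4 in 2iL, and 48.4 and 48.8 in SL. It rose by 0.28 ± 0.05 in 2iL and by 0.25 ± 0.05 in 2iL-F against SL. Dnajb6, which keeps aggregation-prone proteins soluble, fell by 0.56 ± 0.05 in 2iL, with 41.0 and 40.8 TPM there and 62.2 and 59.5 in SL. Dnajb13, a component of sperm flagella, was at 1.29 and 1.00 TPM in A2iL, 3.99 and 4.10 in LCDM, 3.47 and 3.93 in 2iL-F, 3.98 and 3.44 in 2iL, and 0.320 and 0.704 in SL. Its rise of 1.75 ± 0.14 in LCDM became 2.83 with a pseudocount of 0.1, and that of 1.65 ± 0.14 in 2iL, the same size as in 2iL-F, became 2.71.

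Class C, whose members share little beyond the J domain, did not follow one direction. In 2iL against SL, 6 of the 17 class C members rose and 6 fell, with a median change of 0.06, while 6 of 9 class B and 3 of 4 class A members fell. Over all lines 36.7% rose and 40.9% fell, and the class C shares, 35.3% each way, were near these. The class held the largest rises of the whole set. Dnajc6, which encodes auxilin, the J protein that strips clathrin coats from vesicles (chromosome 4, 101496648 to 101642799, plus strand), had 7.15 and 6.80 TPM in A2iL, 8.57 and 9.08 in LCDM, 24.0 and 26.1 in 2iL-F, 13.8 and 15.8 in 2iL, and 2.17 and 2.33 in SL. All 5 conditions were apart, with 2iL-F highest and SL lowest. Dnajc6 rose by 1.30 ± 0.08 in A2iL, 1.60 ± 0.08 in LCDM, 3.00 ± 0.08 in 2iL-F and 2.28 ± 0.08 in 2iL against SL.

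Dnajc4 (chromosome 19, 6987911 to 6992572, minus strand) had 24.3 and 23.3 TPM in A2iL, 41.0 and 40.3 in LCDM, 29.6 and 29.8 in 2iL-F, 68.8 and 61.2 in 2iL, and 13.5 and 15.4 in SL. It was highest in 2iL and lowest in SL, the reverse of Hspa8, and no 2 conditions overlapped. Its change was 0.69 ± 0.07 in A2iL, 1.44 ± 0.07 in LCDM, 0.99 ± 0.07 in 2iL-F and 2.10 ± 0.07 in 2iL against SL. Dnajc5, which encodes the synaptic vesicle chaperone CSPα, fell by 0.88 ± 0.06 in 2iL, where it had 20.9 and 22.6 TPM against 39.3 and 42.1 in SL. Dnajc7, the most abundant class C member, ranged between 73.4 and 93.1 TPM and overlaps Cnp on the opposite strand. Dnajc14 stayed between 22.6 and 26.1 TPM in all 10 libraries.

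HSP90 genes moved in different directions. Hsp90aa1 had 1934 and 1983 TPM in A2iL, 2063 and 2015 in LCDM, 2448 and 2615 in 2iL-F, 2444 and 2572 in 2iL, and 1998 and 1992 in SL. The 2 conditions with PD0325901 were the high ones, at 0.34 ± 0.05 in 2iL-F and 0.33 ± 0.05 in 2iL against SL, and the changes in A2iL and LCDM, -0.03 ± 0.05 and 0.03 ± 0.05, did not pass. After quantile normalisation the change in A2iL became -0.21 and passed (adjusted p = 0.00122, limma). Hsp90ab1 had 4459 and 4591 TPM in A2iL, 4901 and 4856 in LCDM, 4520 and 4451 in 2iL-F, 3562 and 3720 in 2iL, and 4333 and 4415 in SL. It was lowest in 2iL, at -0.27 ± 0.04 against SL, and this became -0.55 after quantile normalisation, while the rise of Hsp90aa1 became 0.19. The ratio of Hsp90aa1 to Hsp90ab1 was 0.434 and 0.432 in A2iL, 0.421 and 0.415 in LCDM, 0.541 and 0.587 in 2iL-F, 0.686 and 0.691 in 2iL, and 0.461 and 0.451 in SL. The shares of the 2 forms thus lay closest together in 2iL.

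Co-chaperones of HSP90 outside the symbol rule gave 18 tested genes. Of these 2 rose and 8 fell in A2iL against SL, where 21.9% and 31.9% of all lines did so. In LCDM 7 rose and 4 fell, beside 32.2% and 33.7% of all lines. In 2iL-F 5 rose and 9 fell, beside 28.1% and 37.3%, and in 2iL 7 rose and 9 fell, beside 36.7% and 40.9%. Fkbp4, the immunophilin FKBP52 of steroid receptor complexes, had 623 and 617 TPM in 2iL-F and 508 and 506 in SL. In 2iL it rose by 1.04 ± 0.04 against SL. Fkbp5, its relative FKBP51, had 57.2 and 56.7 TPM in A2iL, 70.7 and 72.0 in LCDM, 47.7 and 47.0 in 2iL-F, 84.4 and 83.6 in 2iL, and 40.4 and 41.7 in SL. It passed in all 4 comparisons with SL, by 1.02 ± 0.04 in 2iL. Ppid, the cyclophilin CYP40, had 48.6 and 52.0 TPM in 2iL-F, 53.9 and 61.5 in 2iL, and 93.7 and 94.2 in SL, and fell in 2iL-F by 0.89 ± 0.07 against SL. Trap1, the mitochondrial HSP90, which the symbol rule does not reach, rose by 0.55 ± 0.05 in LCDM and by 0.40 ± 0.05 in 2iL.

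A set of 6 ER chaperone members was fixed by name: Hspa5, Hsp90b1, Dnajb9, Dnajb11, Dnajc3 and Dnajc10. It does not hold every ER member, and Hspa13, given above, is outside it. The summed level of this ER set was lower outside SL, and it was led by Hspa5 and Hsp90b1. Hspa5 encodes BiP, the ER HSP70 (chromosome 2, 34771970 to 34777547, plus strand), and Hsp90b1 encodes GRP94, the ER HSP90 (chromosome 10, 86690209 to 86705509, minus strand). Both are textbook targets of the unfolded protein response through the ER stress element, here searched on both strands as CCAAT and CCACG with 9 bases between them, from 250 bases before to 50 bases after the RefSeq start (GRCm38.p6). Of the 47 members with such a window, 3 held a match, beside 0.14% of 27025 genes. These matches are shown because all of them fall in ER chaperones, with the match in capitals and 5 bases on each side. The first 3 lie on the gene's own strand, and the last reads the element on the other strand.
Hspa5, chr2:34772020-34772048, plus strand: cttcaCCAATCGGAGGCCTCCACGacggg
Dnajc3, chr14:118937822-118937850, plus strand: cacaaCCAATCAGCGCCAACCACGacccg
Hsp90b1, chr10:86705633-86705661, minus strand: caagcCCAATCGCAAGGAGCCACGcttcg
Hsp90b1, chr10:86705528-86705556, minus strand: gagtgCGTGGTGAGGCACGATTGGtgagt

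Seen from the start site, the match of Hspa5 begins at -65, that of Dnajc3 at -105, and those of Hsp90b1 at -212 and -107. A match describes letters only and shows no binding. The 3 genes that share the element did not move alike. Hspa5 had 224 and 228 TPM in A2iL, 203 and 190 in LCDM, 262 and 272 in 2iL-F, 98.4 and 119 in 2iL, and 333 and 347 in SL. It changed by -0.58 ± 0.08 in A2iL, -0.79 ± 0.08 in LCDM, -0.35 ± 0.08 in 2iL-F and -1.64 ± 0.08 in 2iL against SL, and no 2 conditions overlapped.

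Hsp90b1 had 305 and 319 TPM in A2iL, 288 and 283 in LCDM, 353 and 356 in 2iL-F, 251 and 277 in 2iL, and 394 and 390 in SL. It followed the same order as Hspa5 over a smaller range, with a change of -0.57 ± 0.05 in 2iL against SL. Dnajc3, the cochaperone P58IPK, had 18.2 and 16.8 TPM in A2iL, 18.1 and 15.8 in LCDM, 22.4 and 23.3 in 2iL-F, 22.6 and 27.6 in 2iL, and 21.1 and 22.1 in SL. Here 2iL was not low, and its change against SL of 0.20 ± 0.10 did not pass (adjusted p = 0.0905, limma). It passed with median-of-ratios scaling, at 0.23 (adjusted p = 0.0281, limma), and without 2iL replicate 3, at 0.34 (adjusted p = 0.0093, limma), and was 0.06 without 2iL replicate 5. Gm15344 overlaps Hsp90b1 on the same strand, so its reads may be shared.

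The other J proteins of the ER set moved less than Hspa5. Dnajb9, or ERdj4, had 17.9 and 18.3 TPM in A2iL, 14.3 and 13.6 in LCDM, 16.0 and 16.9 in 2iL-F, 6.78 and 8.98 in 2iL, and 20.6 and 17.5 in SL. It was low in 2iL, by 1.18 ± 0.12 against SL, and A2iL overlapped with SL. Dnajb11, or ERdj3, fell by 0.49 ± 0.05 in LCDM and by 0.42 ± 0.05 in 2iL, and in 2iL-F it was level with SL at 0.00 ± 0.05 (adjusted p = 0.973, limma). The antisense gene Gm30505 overlaps it. Dnajc10, or ERdj5, an ER disulfide reductase, fell by 0.50 ± 0.08 in 2iL and by 0.38 ± 0.08 in LCDM. Together the 6 members of the ER set summed to 646 and 665 TPM in A2iL, 595 and 572 in LCDM, 746 and 756 in 2iL-F, 447 and 505 in 2iL, and 866 and 873 in SL.

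Other ER folding and unfolded protein response genes passed more often as lower than as higher in A2iL and LCDM, but not in 2iL-F and 2iL. Of 32 tested, 6 rose and 14 fell in A2iL against SL, where 21.9% and 31.9% of all lines did so. In LCDM 6 rose and 17 fell, beside 32.2% and 33.7% of all lines. In 2iL-F 14 rose and 7 fell, beside 28.1% and 37.3%, and in 2iL 11 rose and 9 fell, beside 36.7% and 40.9%. The median change of the 32 genes was -0.08 in A2iL, beside -0.07 over all lines, and -0.17 in LCDM, beside 0. It was 0.12 in 2iL-F, beside -0.08, and -0.04 in 2iL, beside -0.04. Ddit3, which encodes the stress-induced factor CHOP, had 28.1 and 31.5 TPM in A2iL, 20.1 and 19.5 in LCDM, 41.1 and 43.3 in 2iL-F, 105 and 88.4 in 2iL, and 23.2 and 21.5 in SL. It was highest in 2iL, where Hspa5 was lowest, and rose there by 2.06 ± 0.09 against SL. Herpud1, a part of ER-associated degradation, rose by 1.93 ± 0.09 in 2iL, with 41.2 and 45.7 TPM there and 11.3 and 10.1 in SL. The disulfide isomerase gene Pdia5 rose by 1.43 ± 0.06 in 2iL and by 1.10 ± 0.06 in 2iL-F. Hyou1, the ER relative of HSP110, rose by 0.59 ± 0.05 in 2iL. Manf, a secreted ER stress protein, fell in all 4 conditions, by 0.60 ± 0.07 in 2iL.

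**Figure D3:**
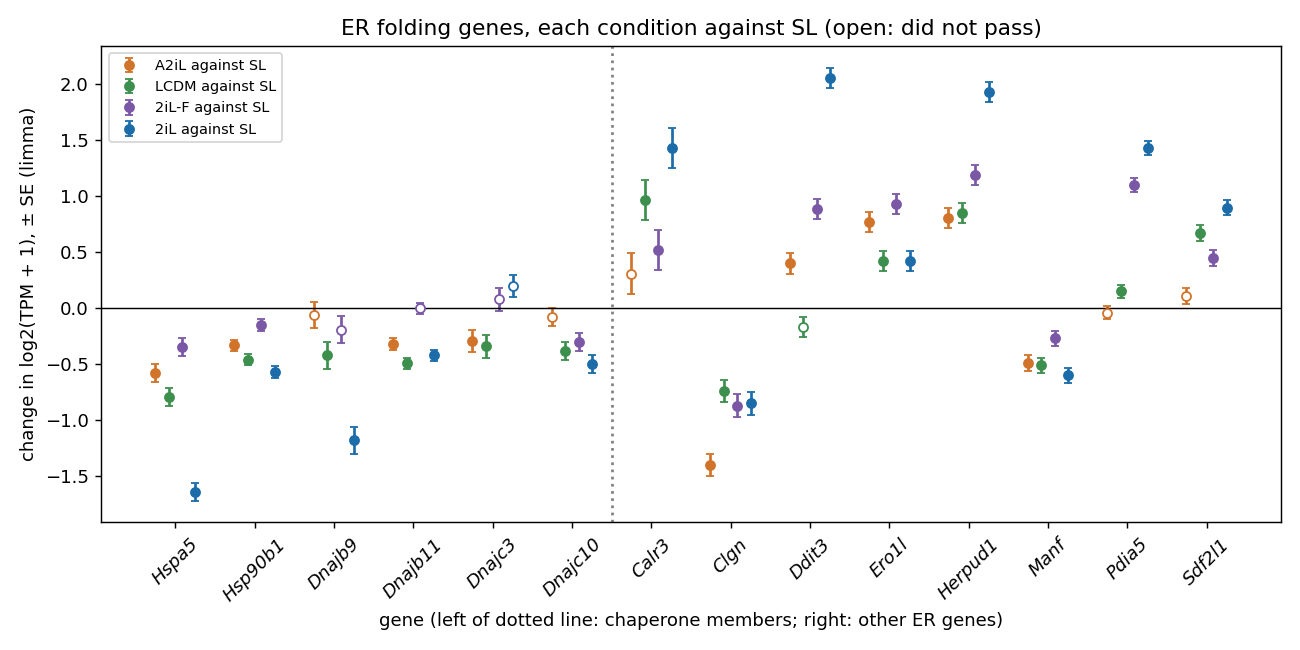
Change of 14 ER genes against SL on the log2(TPM + 1) scale, with bars for the limma standard error, in A2iL, LCDM, 2iL-F and 2iL. Left of the dotted line are the 6 members of the ER set, and right of it the other ER genes with the largest changes by the naming rule. Filled points passed and open points did not. Hspa5 is at -1.64 in 2iL, where Ddit3 is at 2.06 and Herpud1 at 1.93.

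In the mitochondria the chaperonin and the HSP70 parted. Hspd1, which encodes HSP60 (chromosome 1, 55077835 to 55088243, minus strand), had 499 and 499 TPM in A2iL, 649 and 628 in LCDM, 521 and 555 in 2iL-F, 395 and 463 in 2iL, and 867 and 861 in SL. SL stood well above every other library and 2iL below every other. The changes against SL were -0.79 ± 0.07 in A2iL, -0.44 ± 0.07 in LCDM, -0.68 ± 0.07 in 2iL-F and -1.01 ± 0.07 in 2iL. Dnaja3, the mitochondrial J protein that works with mortalin, had 40.7 and 43.0 TPM in A2iL, 48.2 and 44.9 in LCDM, 39.8 and 40.4 in 2iL-F, 52.3 and 58.9 in 2iL, and 43.9 and 46.2 in SL. Like Hspa9 it was highest in 2iL, by 0.30 ± 0.07 against SL, but Coro7 and Vasn overlap it. Dnajc19, a J protein of the inner membrane import motor, rose by 0.47 ± 0.05 in 2iL, with 56.5 and 56.7 TPM there and 40.6 and 40.4 in SL. Fxr1 overlaps Dnajc19, and the pseudogene with its values cannot be told apart from it.

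A list of mitochondrial import and protein quality control gave 21 further genes. Against SL, 1 rose and 6 fell in A2iL, where 21.9% and 31.9% of all lines did so. In LCDM 11 rose and 2 fell, beside 32.2% and 33.7% of all lines. In 2iL-F 1 rose and 9 fell, beside 28.1% and 37.3%, and in 2iL 8 rose and 5 fell, beside 36.7% and 40.9%. Timm44, which ties mortalin to the import channel, had 36.8 and 36.0 TPM in A2iL, 51.4 and 52.6 in LCDM, 38.5 and 38.9 in 2iL-F, 68.3 and 69.4 in 2iL, and 33.2 and 31.6 in SL. It rose by 1.06 ± 0.04 in 2iL and by 0.67 ± 0.04 in LCDM. The nucleotide exchange factors of mortalin went opposite ways in 2iL, where Grpel2 rose by 0.72 ± 0.06 and Grpel1 fell by 0.61 ± 0.05.

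Promoters of the heat shock genes were searched for the binding motif of heat shock factors in the same windows and on both strands. The motif with 3 units, GAA, TTC and GAA or TTC, GAA and TTC with 2 bases between neighbours, was found in 3 of 47 members, namely Hspd1, Hsph1 and Dnajb6, beside 0.66% of 27025 genes. The motif with 2 such units, which every motif with 3 units contains, was found in 13 members (27.7%, beside 16.97% of genes). The matches upstream of the start in Hspd1 and Dnajb6 are shown as the longest, and the first ones of Dnaja4 and Hspb1 because these genes moved in opposite directions in A2iL, LCDM and 2iL-F against SL, while both fell in 2iL. Capitals mark the match, with 5 bases on each side. In Hspd1 the capitals join 2 overlapping motifs with 3 units.
Hspd1, chr1:55088054-55088081, minus strand: gggccTTCCGGAAGGTTCTAGAAcggac
Dnajb6, chr5:29735847-29735869, plus strand: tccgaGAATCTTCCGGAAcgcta
Dnaja4, chr9:54699464-54699481, plus strand: tccgcGAACGTTCtgggc
Hspb1, chr5:135887797-135887814, plus strand: caagaGAAGTTTCcagat

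The match begins at -144 in Hspd1, at -46 in Dnajb6, at -90 in Dnaja4 and at -117 in Hspb1. The members with 3 units, Hspd1, Hsph1 and Dnajb6, fell against SL in all 4 conditions, as did 28.6% of all members and 17.1% of all lines. In Hsph1 the motif with 3 units lies after the start. Of the members with 2 units alone, Cct6a, Dnaja1, Dnaja4 and Dnajb4 also fell in all 4 conditions. Cct2, Cct5 and Dnajc10 fell in some conditions, and Dnajc27 passed in none. Bag3 passed in both directions, as did Hspb1, which rose in 3 conditions. The part of the motif in these changes was not tested. A missing match says only that these letters are not in the window.

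The textbook heat-inducible cytosolic genes did not share a direction in 2iL against SL, where Hsph1, Bag3 and Hspb1 fell and Dnajb1 and Hsp90aa1 rose. Outside the symbol rule, 11 genes of the heat shock factor list were tested. Chordc1, Ahsa1, Stip1 and Fkbp4 are among them and were also counted with the HSP90 co-chaperones, so the 2 sets of counts overlap. Against SL, 0 of the 11 rose and 3 fell in A2iL, where 21.9% and 31.9% of all lines did so. In LCDM 4 rose and 2 fell, beside 32.2% and 33.7% of all lines. In 2iL-F 2 rose and 5 fell, beside 28.1% and 37.3%, and in 2iL 2 rose and 4 fell, beside 36.7% and 40.9%. The heat shock factor gene Hsf1 had 14.1 and 14 TPM in A2iL, 16.9 and 19.1 in LCDM, 12.8 and 12.6 in 2iL-F, 17.3 and 16.4 in 2iL, and 15.5 and 16.2 in SL. Against SL it fell by 0.29 ± 0.07 in 2iL-F and rose by 0.17 ± 0.07 in LCDM (adjusted p = 0.0447, limma), while -0.16 ± 0.07 in A2iL and 0.09 ± 0.07 in 2iL did not pass. The rise of Hsf1 in LCDM missed the threshold with the replicate block (adjusted p = 0.0605, limma), with median-of-ratios scaling (adjusted p = 0.0759) and with no filter (adjusted p = 0.0515). The same held in the 4 libraries alone (adjusted p = 0.0831, limma) and in the fit leaving out 2iL and 2iL-F (adjusted p = 0.0624, limma). It also missed it without SL replicate 3 (0.14), without SL replicate 5 (0.21) and without LCDM replicate 5 (0.09).

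Hspb1 encodes HSP27, a small heat shock protein that holds unfolded proteins and binds actin filaments (chromosome 5, 135887919 to 135889563, plus strand). It had 850 and 803 TPM in A2iL, 1087 and 1156 in LCDM, 1233 and 1186 in 2iL-F, 575 and 519 in 2iL, and 647 and 658 in SL. The conditions did not overlap, with 2iL-F highest and 2iL lowest. Against SL its rise was 0.34 ± 0.06 for A2iL, 0.78 ± 0.06 for LCDM and 0.89 ± 0.06 for 2iL-F, while it fell by 0.26 ± 0.06 in 2iL (adjusted p = 0.00413, limma). Hspb9, a testis form, stayed under 1.26 TPM, and its fall of 0.56 ± 0.16 in 2iL against SL became 0.02 after quantile normalisation and -1.31 with a pseudocount of 0.1. Hspb9 missed the threshold without SL replicate 3 (-0.41, adjusted p = 0.0874, limma) and without 2iL replicate 5 (-0.42, adjusted p = 0.0846, limma).

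Bag3, the co-chaperone that sends HSP70 clients to autophagy, had 65.8 and 58.9 TPM in A2iL, 42.8 and 43.2 in LCDM, 46.0 and 43.2 in 2iL-F, 27.6 and 31.5 in 2iL, and 49.7 and 51.9 in SL. It was highest in A2iL and lowest in 2iL, at -0.76 ± 0.08 against SL. Its rise of 0.29 ± 0.08 in A2iL missed the threshold without SL replicate 3 (0.26, adjusted p = 0.0667, limma) and without A2iL replicate 3 (0.21, adjusted p = 0.0877, limma). Bag1, an exchange factor named for its binding to BCL2, was highest in 2iL, with 273 and 245 TPM there and 206 and 194 in SL, a rise of 0.37 ± 0.06. Bag6, which guides tail-anchored and misfolded membrane proteins, was highest in LCDM, with 179 and 188 TPM there and 140 and 146 in SL, a rise of 0.36 ± 0.05.

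The chaperonin TRiC is a double ring in which each subunit occurs once per ring, and 7 of its subunit genes were described together with Cct6b, a testis form of Cct6a. Tcp1, the remaining ring subunit, is not analysed here. Of these 8 genes, 5 fell in 2iL against SL and 2 rose, Cct7 and the scarce Cct6b, where 40.9% and 36.7% of all lines did so. There Cct2, Cct3, Cct5, Cct6a and Cct8 fell, by between 0.27 and 0.44, Cct4 did not pass at 0.06 ± 0.08 and Cct7 rose. Without 2iL replicate 3 the fall of Cct5, -0.36 in all libraries, became -0.23, and Cct4 passed at 0.19 (adjusted p = 0.0168, limma). Without 2iL replicate 5 Cct4 was at -0.06. Cct7 (chromosome 6, 85451514 to 85468475, plus strand) had 170 and 164 TPM in A2iL, 229 and 222 in LCDM, 169 and 171 in 2iL-F, 296 and 302 in 2iL, and 185 and 185 in SL. The 2iL libraries were highest and LCDM next, and the change was 0.69 ± 0.04 in 2iL (adjusted p = 4.93e-07, limma) and 0.29 ± 0.04 in LCDM against SL. Among the 7 broadly expressed subunits Cct7 ranked 7 in A2iL and 2iL-F, 6 in LCDM, 3 and 5 in 2iL, and 7 in SL. Its share of the summed level was 8.3% and 8.1% in A2iL, 10% and 10.1% in LCDM, 9.3% and 9.2% in 2iL-F, 15.7% and 14.1% in 2iL, and 8.0% in both SL libraries. Cct7 overlaps Pradc1 on the opposite strand over 457 bases.

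**Figure D4:**
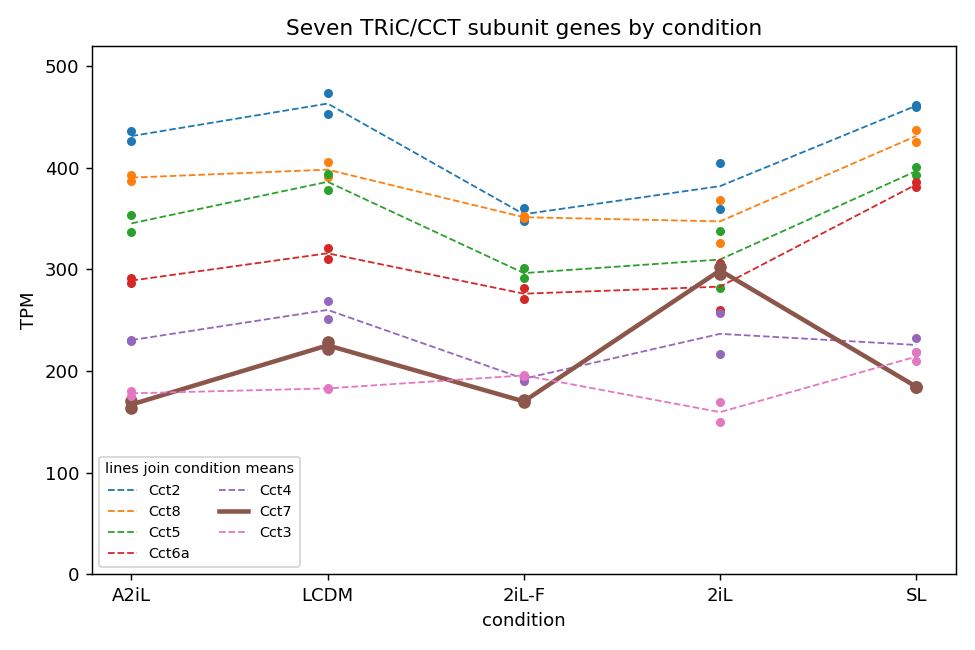
TPM of 7 TRiC/CCT subunit genes by condition (points are libraries, lines join condition means, linear axis from 0). The solid line is Cct7, at 296 and 302 TPM in 2iL and 185 and 185 in SL. Most of the other subunits are lower in 2iL and 2iL-F than in SL.

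Cct2 was the highest of the 7 subunit genes in 9 of the 10 libraries, with 436 and 426 TPM in A2iL, 474 and 453 in LCDM, 348 and 361 in 2iL-F, 359 and 405 in 2iL, and 460 and 462 in SL. In 2iL-F it fell by 0.38 ± 0.06 against SL, and Cct8 and Cct2 traded places in 2iL-F replicate 3. Cct5 fell by 0.42 ± 0.08 and Cct6a by 0.47 ± 0.07 in 2iL-F. Cct6b did not exceed 1.43 TPM. Prefoldin and TRiC accessory genes gave 12 tested. Against SL, 1 rose and 5 fell in A2iL, where 21.9% and 31.9% of all lines did so. In LCDM 4 rose and 4 fell, beside 32.2% and 33.7% of all lines. In 2iL-F 2 rose and 6 fell, beside 28.1% and 37.3%, and in 2iL 4 rose and 5 fell, beside 36.7% and 40.9%. Pdcl3, a phosducin-like partner of TRiC, fell in all 4 conditions, by 0.80 ± 0.06 in A2iL, with 17.6 and 17.2 TPM there and 31.2 and 30.8 in SL. The prefoldin subunit gene Pfdn6 fell by 0.79 ± 0.09 in 2iL-F and by 0.77 ± 0.09 in 2iL.

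Comparisons among the serum-free conditions asked which differences remained within N2B27. In 2iL-F against 2iL, which share a medium by their labels, 22 members rose and 12 fell, beside 29.2% and 32.5% of all lines. The median was 0.09 over the members and -0.02 over all lines. Hspa8 rose by 1.87 ± 0.07, Dnajb4 by 1.67 ± 0.10, Hspa5 by 1.30 ± 0.08 and Hspb1 by 1.15 ± 0.06, the 4 members at 1 or more, where 8.44% of all lines rose that far. With a pseudocount of 0.1 the rise of Dnajb4 became 2.67. Dnajc4 fell by 1.10 ± 0.07, the 1 member to fall that far, beside 4.68% of all lines, and Cct7 by 0.81 ± 0.04. In this comparison the fibroblast markers summed to 5781 and 5579 TPM in 2iL-F and to 1055 and 1116 TPM in 2iL, and their part was not tested.

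In LCDM against 2iL, which differ by label in the compounds added beside Chir99021, 28 members rose and 12 fell, beside 34.3% and 28% of all lines, with a median of 0.16 and 0.06 over all lines. Hspa8 rose by 1.79 ± 0.07, Hspa12a by 1.23 ± 0.10 (1.86 with a pseudocount of 0.1), Hspb1 by 1.04 ± 0.06, Dnaja1 by 1.01 ± 0.04 and Dnajb4 by 1.00 ± 0.10, 5 members at 1 or more, beside 6.65% of all lines. The rise of Dnajb4 became 1.79 with a pseudocount of 0.1. Here 35 of the 40 fibroblast markers were higher and 4 lower, with a median change of 2.58 and sums of 1493 and 1477 TPM in LCDM and 1055 and 1116 in 2iL, and their part was not tested. Cct7 fell by 0.41 ± 0.04 and Dnajc6 by 0.69 ± 0.08, and 0 members fell by as much as 1, beside 5.85% of all lines. The 5 members that rose that far were also higher than 2iL in 2iL-F, which by label has the medium of 2iL. There Hspa8 rose by 1.87 ± 0.07, Hspa12a by 0.51 ± 0.10, Hspb1 by 1.15 ± 0.06, Dnaja1 by 0.90 ± 0.04 and Dnajb4 by 1.67 ± 0.10. Cct7 was lower there too, by 0.81 ± 0.04, while Dnajc6 was higher by 0.72 ± 0.08. The part of the added compounds was not tested.

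A2iL and 2iL-F, which differ in the kinase inhibitor CGP77675 or PD0325901 and in the feeder label, had the fewest passing members of the 7 comparisons. Here 9 members rose and 13 fell, beside 22.2% and 23% of all lines, with a median of -0.02 and 0.01 over all lines. The split became 12 higher and 9 lower after quantile normalisation, and leaving out any 1 of the 4 libraries gave 4 to 5 higher and 7 to 8 lower. Dnajc6 fell by 1.71 ± 0.08, with 7.15 and 6.80 TPM in A2iL and 24.0 and 26.1 in 2iL-F. Dnajb13 fell by 1.13 ± 0.14. These 2 were the only members past 1, with 0 on the higher side, beside 4.28% of all lines lower and 3.86% higher. Hspb1 fell by 0.55 ± 0.06 and Hsp90aa1 by 0.37 ± 0.05, while Bag3 rose by 0.47 ± 0.08 and Dnajb5 by 0.54 ± 0.07. Hspa8, at -0.02 ± 0.07, did not pass (adjusted p = 0.877, limma).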

How the data were processed

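RNA-seq was done on 10 libraries, 2 for each of 5 culture conditions. Per the labels' protocols, a Qiagen kit gave the RNA and the NEBNext Ultra kit the libraries. The submitters' processing notes name Bowtie2, RSEM, R 3.4.2 and DESeq2 and the build mm10, without further versions or a strand setting. The authors deposited TPM values in 1 table of 20494 lines. Since TPM drop the read number, depth and its precision are unknown. Column totals ran between 709982 and 729571 TPM.

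Symbols were used only in the upper part of the table. There 98.3% of 116 members of broadly expressed families reached 5 TPM on their own line, against 52.9% of 34 farther down, where 85.3% did so on the next line. Farther down, 29 matching symbols were not used.

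The fit of log2(TPM + 1) used limma 3.58.1 in R 4.3.3 (eBayes, trend on), a mean for each condition and all 10 libraries, with 5 residual degrees of freedom (median 8.3 with the prior). The 14578 lines with 1 TPM in 2 libraries were tested, and Benjamini-Hochberg adjustment covered them all in each of 7 comparisons. The fit was tested on simulated data. Other settings were a filter of 5 TPM or none, a pseudocount of 0.1, scaling by median of ratios or quantiles, only the 4 libraries compared, a block for the replicate number, and leaving out each library. A fit on the named lines alone and a fit leaving out 2iL and 2iL-F were added after seeing the data. Gene positions are from GENCODE vM21 and promoters from RefSeq (GRCm38.p6, 47 of 56 members matched). Figures were drawn with matplotlib 3.10.9 in Python 3.11.15.

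Every member may be named. Values are given for the highest member of each family, for members past 1 on the log2 scale with at least 5 TPM, for the widest and narrowest ranges, and for the inducible, ER, mitochondrial and TRiC sets. Dnajb5, Dnajb13, Hspa1l, Hspa4l and Hspb9 lie outside these groups, and values are given for them as well. Of the other lists, up to 4 passing genes with the largest changes are named in a comparison. Hspa12a, Dnajc5, Dnajb6, Dnajc19, Bag1, Bag6, Hsf1, Hyou1, Trap1, Grpel1 and Manf in 2iL were chosen after their values were seen. The members and lists were chosen with earlier results of these data known.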

Additional observations from a re-analysis of the deposited data

How the results depend on the processing

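TPM hold no read number, so counting error is unknown, and 2 libraries a condition limit the precision. The fit pooled the spread over the conditions, which were not equally even. The standard deviation of the summed members was 87.3 TPM in A2iL, 194 in LCDM, 95.1 in 2iL-F, 537 in 2iL and 112 in SL. The same replicate numbers did not pair the libraries (correlations of deviations between -0.131 and 0.075), and the replicate block gave 5 higher and 23 lower members in A2iL against SL. Among 14 counts of members, those beyond 1.5 times were in A2iL against SL, where 5 higher became 11 with median-of-ratios scaling, 9 with quantile normalisation and 3 to 5 with a library left out, and in A2iL against 2iL-F, where 9 higher became 4 to 5 and 13 lower became 7 to 8 with any of its 4 libraries left out. Among the named changes the direction turned in Hspa4l (0.04) and Hspb9 (0.02) in 2iL against SL after quantile normalisation, and in changes that had not passed: Cct4 in 2iL (-0.06 to 0.19 with a library left out), Hsp90aa1 in A2iL (0.05 with median-of-ratios scaling) and LCDM (-0.05 after quantile normalisation), and Dnajb11 in 2iL-F (-0.04 without SL replicate 5, -0.05 without 2iL-F replicate 3). The block ended the call of Hsf1 in LCDM against SL (0.17, adjusted p = 0.0605, limma) and no other call of a named change. The causes were not tested.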
